A study of Danio rerio with 6 samples.

Results

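The period genes *per1a*, *per1b*, *per2* and *per3* and the cryptochrome genes *cry1a*, *cry1b*, *cry2*, *cry4* and *cry5* were described in dissected zebrafish heads at 4 dpf. They were chosen by gene name and make up 9 of the 32520 genes listed, and the 3 whose transcription is known to be induced by light in zebrafish, *per2*, *cry1a* and *cry5*, were set apart from the other 6. RNA-seq covered 3 wt samples and 3 *tulp1*-dKO samples, all of strain AB. The *tulp1*-dKO zebrafish carry CRISPR/Cas9 mutations of both *tulp1a* and *tulp1b*, the zebrafish homologs of *TULP1*, with a single mutant line of each gene combined by crossing, and no gene, transgene or treatment is described for the wt samples beyond the strain. The number of heads in each RNA-seq sample, and the hour and lighting at which each sample was collected, are not given in the sources used here. The paper states that its zebrafish lived under a daily light and dark cycle. It does not state the lighting of the incubator that held the embryos until hatching. Expression was deposited as TPM, the share of a gene among all transcripts of a library scaled to a common total, which corrects for gene length, so levels of different genes can be set side by side.

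PERIOD and CRYPTOCHROME proteins are the repressors of the vertebrate circadian clock. CLOCK and BMAL proteins bind E-boxes and activate the period and cryptochrome genes, whose products then block CLOCK and BMAL, so that the mRNAs of these genes rise and fall over the day. Zebrafish cells respond to light directly, and in this species light induces *per2* and *cry1a* without a preceding turn of the clock, which helps to set its phase. The *cry5* gene encodes a (6-4) photolyase, an enzyme that repairs ultraviolet damage in DNA, and is closely related in sequence to the animal cryptochromes.

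The 6 samples summed to between 945666 and 948860 TPM, with 25096 to 25304 genes above 0. Library depth cannot be read from TPM and is unknown here, and the error used here is how far samples of a genotype lay from each other. Neither targeted gene overlapped between the genotypes, and both were lower in the mutants: *tulp1a* was at 23.7 to 25.3 TPM in the wt samples against 14.4 to 16.0 TPM in those of *tulp1*-dKO zebrafish, and *tulp1b* was at 9.77 to 13.1 and 2.01 to 2.71 TPM. Rod and cone markers were present, as the labelled tissue requires, and so were markers of pancreas, liver and skeletal muscle, none of which was at 0 in any sample except the liver gene *serpina1*. For some of the period and cryptochrome genes, sample 3 stood apart from the other samples of its group. It was at most 0.5 times both others for 5 of the 9 in wt and 3 of the 9 in *tulp1*-dKO zebrafish. Over all genes tested the shares were 2.36% and 1.20%. The comparison of the 9 genes is therefore given with and without those samples. Leaving out each sample in turn was planned, but those samples were singled out from the values of the same 9 genes. The p-values without them are thus a description and not a test. The labels do not say whether the samples came from separate clutches, so the p-values measure the spread between these samples, which may be technical.

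Among the light-induced genes, *per2* (ENSDARG00000034503) was measured at 74.1, 71.2 and 3.74 TPM in wt samples 1, 2 and 3. In *tulp1*-dKO samples 1, 2 and 3 it was at 27.0, 19.6 and 19.8 TPM. All 3 *tulp1*-dKO samples thus lay between wt sample 3 and the other 2 wt samples, which were 19.4-fold above sample 3 on average.

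The repressor gene *cry1a* (ENSDARG00000045768) followed the same order, at 94.6, 89.1 and 17.3 TPM in the wt samples against 59.5, 48.4 and 44.9 TPM in those of *tulp1*-dKO zebrafish. The mean of wt samples 1 and 2 was 5.31 times that of wt sample 3. The photolyase gene *cry5* (ENSDARG00000019498) was at 33.7, 30.9 and 2.05 TPM in the wt samples against 9.75, 9.50 and 5.94 TPM in those of *tulp1*-dKO zebrafish. Wt samples 1 and 2 were 15.8-fold above wt sample 3 for this gene. In all 3 light-induced genes, wt sample 3 was at most 0.5 times the level of each of the other 5 samples, a pattern seen in 1.09% of the 22824 genes tested, and the wt samples differed from each other by more than 4-fold, against 4.07% of the genes tested.

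**Figure D1:**
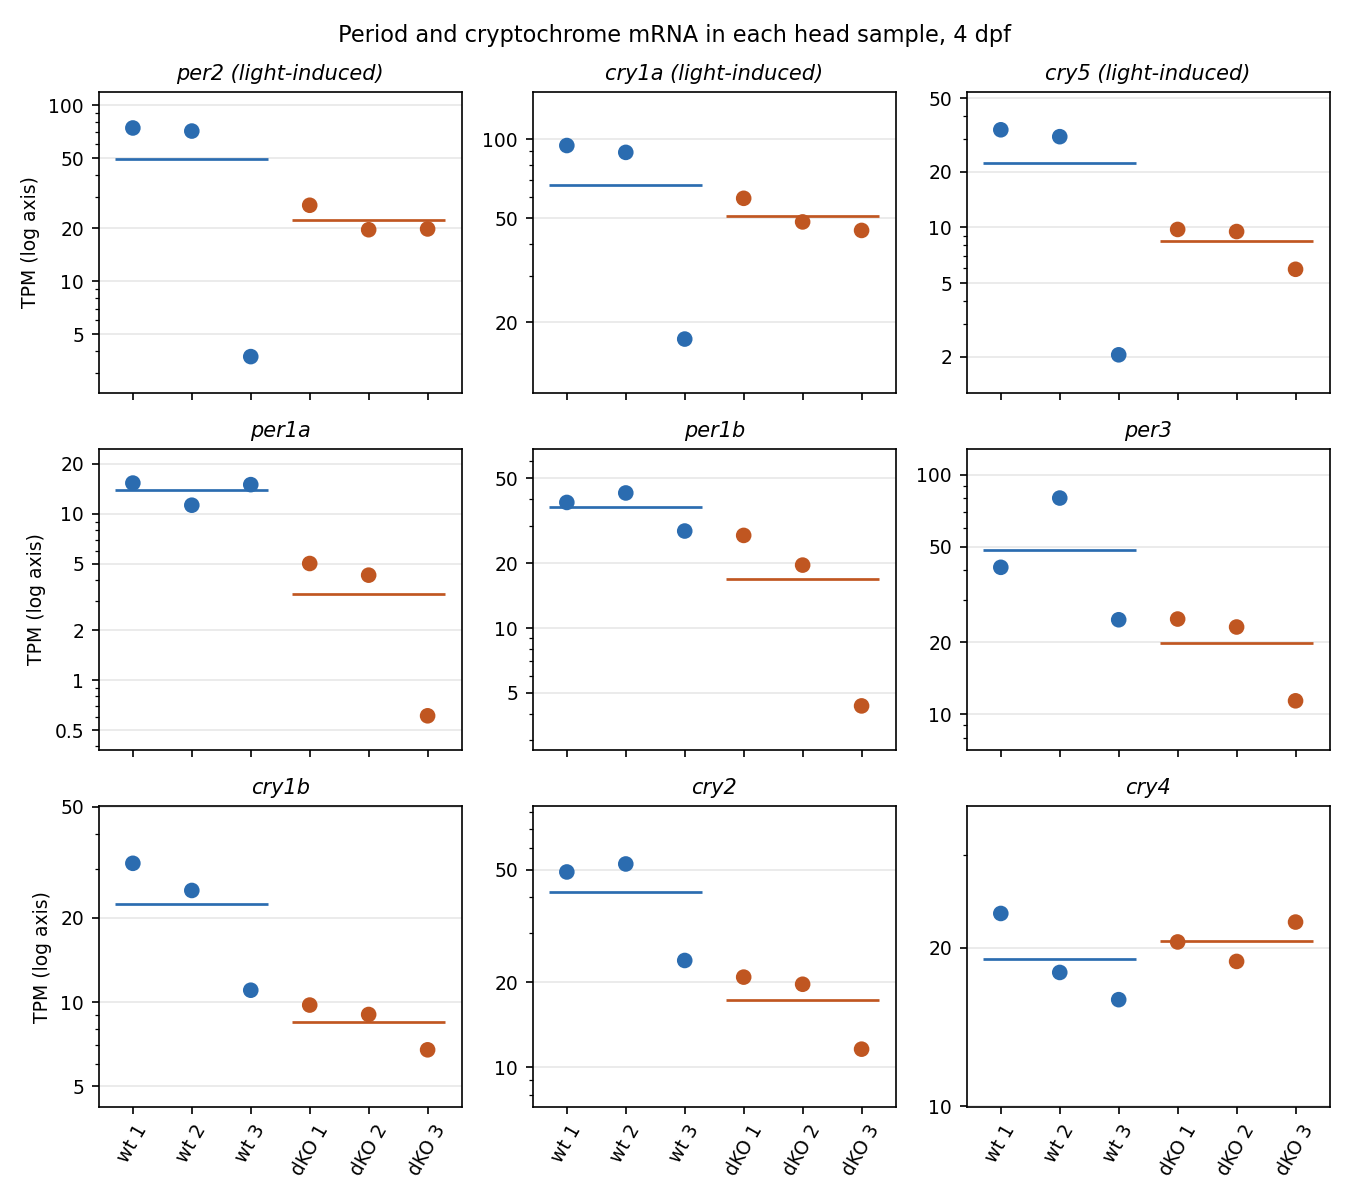
TPM on a log axis of the 9 period and cryptochrome genes in each of the 6 head samples, one panel per gene, with wt samples in blue, *tulp1*-dKO (dKO) samples in orange and a line at the mean of each group; the axis range differs between panels. In *per2*, wt sample 3 is at 3.74 TPM, below every other sample, and in *per1a*, *tulp1*-dKO sample 3 is at 0.61 TPM, below every other sample.

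With all 6 samples, none of the 3 light-induced genes differed between the genotypes beyond the spread of the samples. The log2 fold change of *tulp1*-dKO against wt was −0.31 for *per2* (SE 1.07, 95% interval −2.83 to 2.21), with an adjusted p of 0.921 from limma. For *cry1a* it was −0.06 (SE 0.61, interval −1.5 to 1.38, adjusted p = 0.976 from limma), and for *cry5* it was −0.66 (SE 0.998, interval −3.01 to 1.69, adjusted p = 0.791 from limma). These intervals are wide enough to hold falls and rises of more than 2-fold for each gene, so a p above the threshold does not show that the levels were alike. All fold changes are on the log2(TPM + 0.1) scale, which understates changes of low values, and with 3 samples a genotype the smallest two-sided p of an exact permutation test would be 0.1.

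Without wt sample 3, *per2* fell by 1.73 on the log2 scale in *tulp1*-dKO zebrafish (SE 0.16, adjusted p = 0.0116 from limma), and *cry5* fell by 1.96 (SE 0.23, adjusted p = 0.0231 from limma). That sample was singled out because it was low in these same genes, so these p-values are a description. The adjusted p of *per2* ranged from 0.0116 to 0.958 over 17 alternatives, and that of *cry5* from 0.00999 to 0.995. For *cry1a*, the log2 fold change without wt sample 3 was −0.86 (SE 0.14), and its adjusted p of 0.0521 from limma, the lowest of a range that reached 0.992 over the alternatives, lay just above the threshold of 0.05. With wt sample 3 kept and 1 of the other wt samples left out, the directions did not hold: without wt sample 1 the log2 fold changes were 0.41 for *per2*, 0.36 for *cry1a* and 0.02 for *cry5*, and without wt sample 2 they were 0.38, 0.32 and −0.04. The means of samples 1 and 2 differed between the genotypes 3.12-fold for *per2*, 1.70-fold for *cry1a* and 3.36-fold for *cry5*, with wt higher, while wt samples 1 and 2 were within 1.09-fold of each other for each of these genes.

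The 3 light-induced genes also differed in how far they moved. The ratio of *per2* to *cry1a* TPM within a sample was 0.784 and 0.800 in wt samples 1 and 2, 0.216 in wt sample 3, and between 0.406 and 0.454 in the *tulp1*-dKO samples. The *cry5* to *cry1a* ratio was 0.356 and 0.347 in wt samples 1 and 2, 0.119 in wt sample 3 and 0.132 to 0.196 in *tulp1*-dKO zebrafish. Both ratios were thus highest in wt samples 1 and 2 and lowest in wt sample 3, so *per2* and *cry5* spanned a wider range than *cry1a*.

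The other 6 genes did not share a single pattern. The E-box-driven period gene *per1a* (ENSDARG00000056885) was at 15.3, 11.3 and 15.0 TPM in the wt samples against 5.03, 4.28 and 0.61 TPM in those of *tulp1*-dKO zebrafish. Wt sample 3 did not stand apart for *per1a*, but *tulp1*-dKO sample 3 was 7.63-fold below the mean of *tulp1*-dKO samples 1 and 2. Its log2 fold change was −2.46 (SE 0.70, interval −4.12 to −0.80), with an unadjusted p of 0.0098 and an adjusted p of 0.146 from limma. Without *tulp1*-dKO sample 3, *per1a* fell by 1.55 on the log2 scale (SE 0.18, adjusted p = 0.0212 from limma, over a range of 0.0212 to 0.321 across 17 alternatives).

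Its paralog *per1b* (ENSDARG00000012499) was at 38.5, 42.6 and 28.3 TPM in the wt samples against 27.0, 19.7 and 4.34 TPM in those of *tulp1*-dKO zebrafish. The groups did not overlap, but only by 28.3 against 27.0 TPM, and *tulp1*-dKO sample 3 was again the lowest, 5.38-fold below the mean of *tulp1*-dKO samples 1 and 2. The log2 fold change was −1.43 (SE 0.62, adjusted p = 0.304 from limma), and −0.64 (SE 0.22) without *tulp1*-dKO sample 3. The ratio of *per1a* to *per1b* TPM was 0.265 to 0.530 in the wt samples and 0.141 to 0.218 in the *tulp1*-dKO samples, without overlap.

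The period gene *per3* (ENSDARG00000010519) was at 41.1, 79.9 and 24.8 TPM in the wt samples against 25.0, 23.2 and 11.4 TPM in those of *tulp1*-dKO zebrafish. Its groups overlapped, since *tulp1*-dKO sample 1 was above wt sample 3, and wt samples 1 and 2 differed 1.95-fold, more than for any other of the 9 genes. The log2 fold change was −1.21 (SE 0.46), with an unadjusted p of 0.0341 and an adjusted p of 0.246 from limma. It was −0.76 without wt sample 2 and −1.61 without wt sample 3, with adjusted p-values from limma of 0.118 to 0.447 over 17 alternatives. The 3 genes *per1a*, *per1b* and *per3* were the only ones of the 9 in which *tulp1*-dKO sample 3 was at most 0.5 times both other *tulp1*-dKO samples, against 1.20% of the genes tested.

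Of the cryptochromes, *cry1b* (ENSDARG00000011583), a clock repressor like its paralog *cry1a*, was at 31.4, 25.1 and 11.0 TPM in the wt samples against 9.76, 9.03 and 6.75 TPM in those of *tulp1*-dKO zebrafish. The cryptochrome gene *cry2* (ENSDARG00000102403) was at 49.2, 52.5 and 23.9 TPM in the wt samples against 20.9, 19.7 and 11.6 TPM in those of *tulp1*-dKO zebrafish. In both genes the *tulp1*-dKO samples lay wholly below those of wt, and sample 3 was the lowest of its genotype in both groups. The log2 fold change was −1.28 for *cry1b* (SE 0.37), with an unadjusted p of 0.0108 and an adjusted p of 0.152 from limma. It was −1.23 for *cry2* (SE 0.35), with an unadjusted p of 0.0093 and an adjusted p of 0.142 from limma. Without wt sample 3, *cry1b* fell by 1.73 (adjusted p = 0.0207 from limma, 0.0207 to 0.338 over 17 alternatives) and *cry2* had a log2 fold change of −1.59 (adjusted p = 0.0538 from limma, 0.0132 to 0.339 over 17 alternatives).

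In contrast to these genes, *cry4* (ENSDARG00000011890) was at 23.3, 18.0 and 15.9 TPM in the wt samples against 20.5, 18.9 and 22.4 TPM in those of *tulp1*-dKO zebrafish. It encodes a cryptochrome that lacks the repressor activity of *cry1a* in zebrafish. No sample stood apart, the groups overlapped, and the log2 fold change was 0.13 (SE 0.16, interval −0.24 to 0.49, adjusted p = 0.737 from limma). The interval holds neither a 2-fold fall nor a 2-fold rise.

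Of all 9 genes, 0 passed the thresholds of adjusted p 0.05 or less and a size of at least 2-fold in limma's test with all 6 samples, against 1.32% of the genes tested. At an unadjusted p of at most 0.05, *per1a*, *per3*, *cry1b* and *cry2* were lower, 4 of 9 against 6.97% of the genes tested that were lower at this p. The wt samples lay wholly above those of *tulp1*-dKO zebrafish for 4 of the 9 genes (*per1a*, *per1b*, *cry1b* and *cry2*), against 8.86% of the genes tested. The log2 fold change was below 0 for 8 of 9 genes, with a median of −1.21, where 41.9% of all genes tested were below 0 with a median of 0.05. Without wt samples 1 and 2 in turn, 5 and 6 of the 9 were below 0, and the median was −0.76 without wt sample 2 and −0.64 without *tulp1*-dKO sample 3. The median was −0.31 over the light-induced genes and −1.25 over the other 6. Over the light-induced genes it was 0.36 without wt sample 1, 0.32 without wt sample 2 and −1.73 without wt sample 3, where the other 6 had a median of −1.61.

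**Figure D2:**
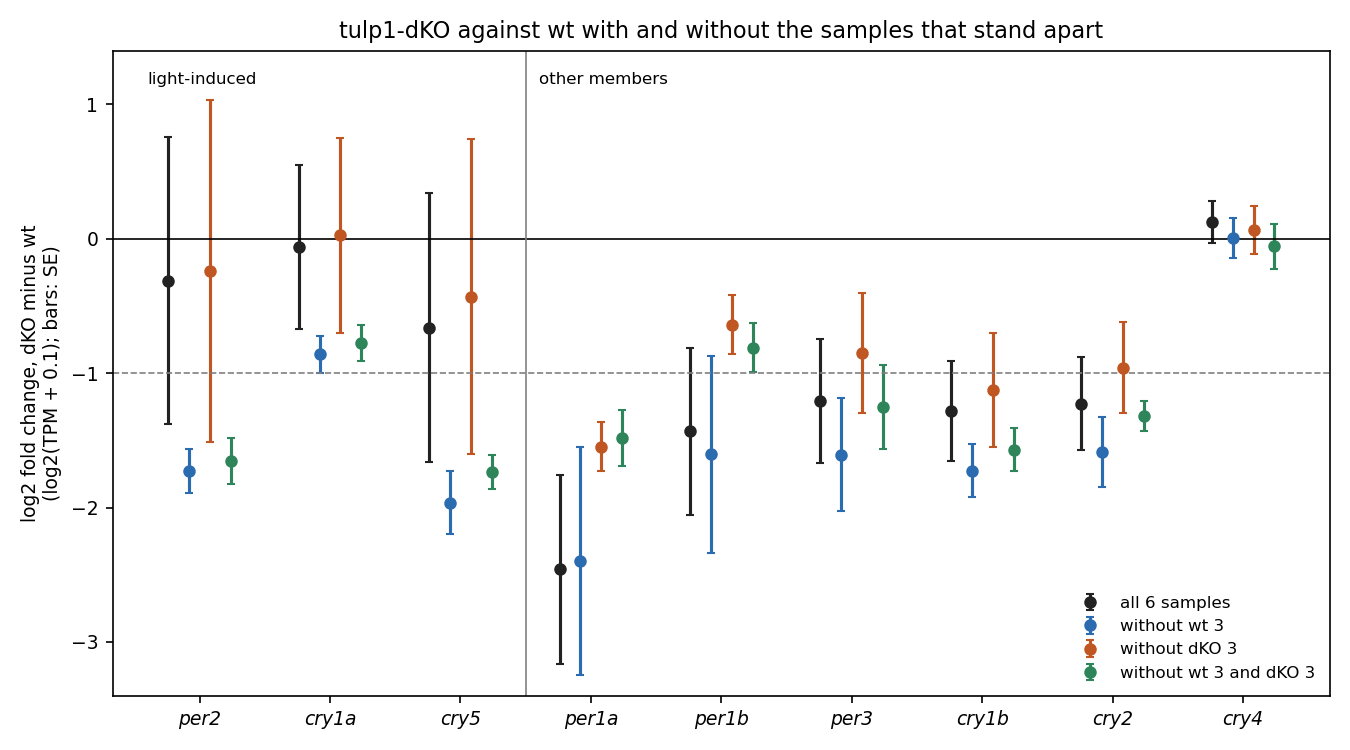
Log2 fold change of *tulp1*-dKO against wt for each gene, from limma on log2(TPM + 0.1), with all 6 samples, without wt sample 3, without *tulp1*-dKO sample 3 and without both; bars are standard errors and the dashed line marks a 2-fold fall. For *per2* the value is −0.31 with all samples and −1.73 without wt sample 3, and for *per1a* it is −2.46 with all samples and −1.55 without *tulp1*-dKO sample 3.

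Of the 9 genes, 3 passed both thresholds without wt sample 3 (*per2*, *cry5* and *cry1b*), against 243 of the 22800 genes tested in that fit. Without *tulp1*-dKO sample 3, 1 passed (*per1a*), against 229 of 22769. Without both samples, a comparison of 2 samples against 2 that was chosen after the values were seen, 4 of the 9 passed, against 249 of 22733. In it *per2* fell by 1.65 on the log2 scale (adjusted p = 0.0243 from limma), *cry5* by 1.74 (adjusted p = 0.00999), *cry1b* by 1.57 (adjusted p = 0.0220) and *cry2* by 1.32 (adjusted p = 0.0132). In that comparison *per1a* had a log2 fold change of −1.48 with an adjusted p of 0.0503 from limma, *per3* −1.25 (0.166), *per1b* −0.81 (0.138), *cry1a* −0.77 (0.0787) and *cry4* −0.05 (0.898). Wt samples 1 and 2 were each above all 3 *tulp1*-dKO samples for 8 of the 9 genes, *cry4* being the exception, against 13.9% of the genes tested. This count sets wt sample 3 aside and was likewise chosen after the values were seen, so it is a description and not a test.

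Sample 3 of the 2 genotypes was at most 0.5 times both other samples of its group in different genes. Even so, every gene except *per1a* and *cry4* was below the mean of samples 1 and 2 in both genotypes. These genes were at 0.0515 to 0.699 times that mean in wt and 0.186 to 0.850 times in *tulp1*-dKO zebrafish. Wt sample 3 was at most 0.5 times both other wt samples for 5 of the 9 genes (*per2*, *cry1a*, *cry5*, *cry1b* and *cry2*), against 2.36% of the genes tested. Of the remaining genes, *per1a*, *per1b* and *cry4* were 0.699 to 1.13 times the mean of wt samples 1 and 2 in wt sample 3, and *per3* was 0.410 times that mean. *tulp1*-dKO sample 3 was the lowest of the 6 samples for *per1a*, *per1b*, *per3*, *cry1b* and *cry2*, against 15.3% of the genes tested, but for none of the light-induced genes, which were at 0.617 to 0.850 times the mean of *tulp1*-dKO samples 1 and 2. The labels name no batch for these samples.

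**Figure D3:**
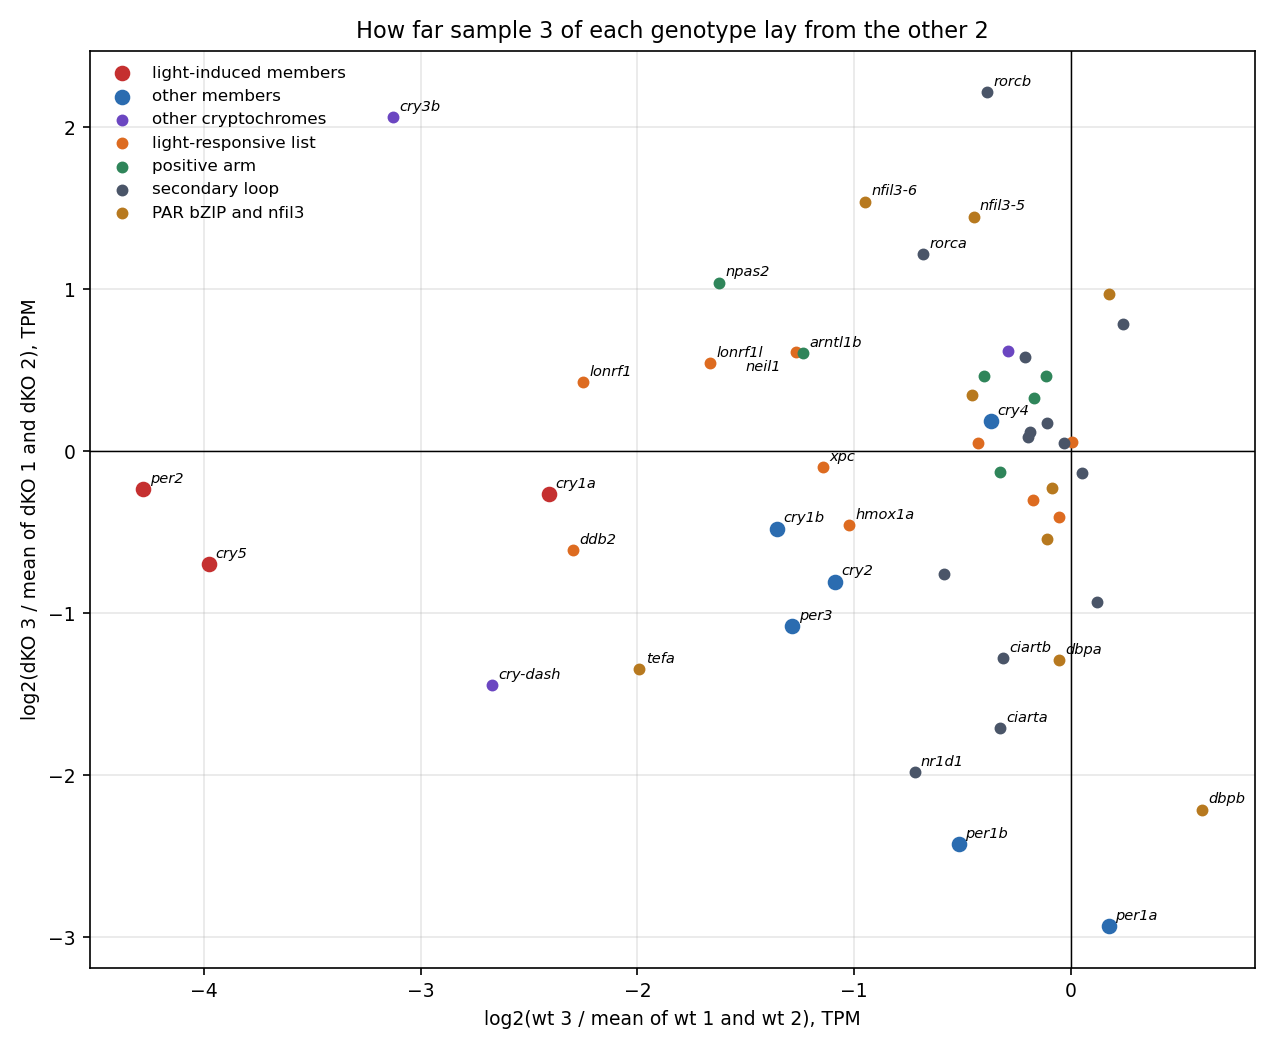
Log2 ratio of wt sample 3 to the mean of wt samples 1 and 2 (x axis) against log2 ratio of *tulp1*-dKO sample 3 to the mean of *tulp1*-dKO (dKO) samples 1 and 2 (y axis), from TPM, for the 9 period and cryptochrome genes and the genes of the clock and light lists; the 9 genes and those at least 2-fold from a ratio of 1 on an axis are named. *per2*, *cry5* and *cry1a* lie far to the left, 19.4-, 15.8- and 5.31-fold below in wt sample 3, and *per1a* and *per1b* lie at the bottom, 7.63- and 5.38-fold below in *tulp1*-dKO sample 3.

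Summed over the 4 period genes, the level was 169, 205 and 71.9 TPM in the wt samples against 84.1, 66.7 and 36.2 TPM in those of *tulp1*-dKO zebrafish. The 5 cryptochrome genes summed to 232, 216 and 70.2 TPM in the wt samples against 120, 105 and 91.6 TPM in those of *tulp1*-dKO zebrafish. Both sums were highest in wt samples 1 and 2, while wt sample 3 was within the range of the *tulp1*-dKO samples for the period genes and below all of them for the cryptochromes. The light-induced genes held 50.5%, 45.5% and 16.2% of the summed TPM of the 9 genes in wt and 47.1%, 45.0% and 55.3% in *tulp1*-dKO zebrafish.

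**Figure D4:**
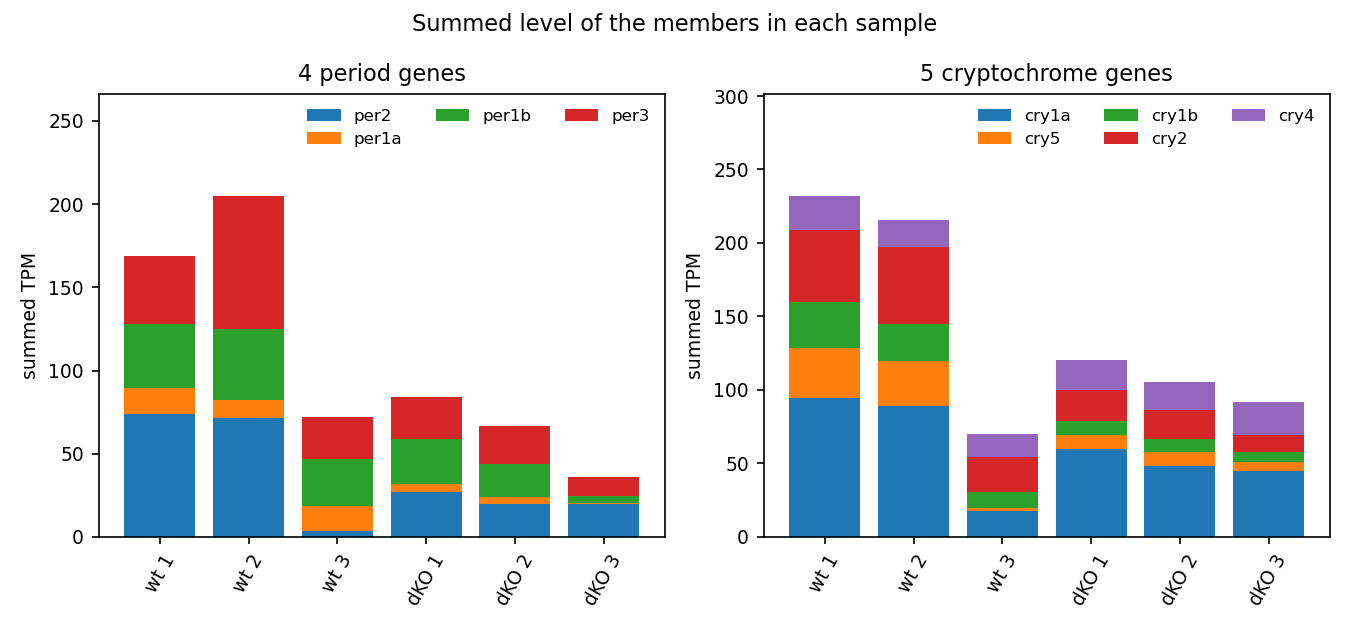
Summed TPM of the 4 period genes (left) and the 5 cryptochrome genes (right) in each wt and *tulp1*-dKO (dKO) sample, stacked by gene from 0. The period genes sum to 205 TPM in wt sample 2 and to 36.2 TPM in *tulp1*-dKO sample 3, and the cryptochrome genes to 232 TPM in wt sample 1 and 70.2 TPM in wt sample 3.

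By mean TPM in wt, the order of the levels was *cry1a* (67.0), *per2* (49.7), *per3* (48.6), *cry2* (41.9), *per1b* (36.5), *cry1b* (22.5), *cry5* (22.2), *cry4* (19.1) and *per1a* (13.9). The ranges of neighbours in this order overlapped except those of *cry4* and *per1a*. In *tulp1*-dKO zebrafish *cry1a* was first at a mean of 50.9 TPM and did not overlap with *per2* (22.2), and *per1a* was last at 3.31 TPM and did not overlap with *cry5* (8.40). Between them came *cry4* (20.6), *per3* (19.8), *cry2* (17.4), *per1b* (17.0) and *cry1b* (8.51), each overlapping with its neighbours. The wt order rests on samples 1 and 2, since in wt sample 3 *cry1a*, *per2* and *cry5* were at 17.3, 3.74 and 2.05 TPM and *cry4* at 15.9 TPM.

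The remaining cryptochrome genes listed were *cry3a*, *cry3b* and *cry-dash*, a member of the DASH family of photolyase-like proteins. The level of *cry-dash* was 66.1, 67.1 and 10.5 TPM in the wt samples against 21.2, 19.8 and 7.53 TPM in those of *tulp1*-dKO zebrafish (log2 fold change −1.29, adjusted p = 0.451 from limma), so it was low in sample 3 of both genotypes. Without both samples 3, a comparison chosen after the values were seen, *cry-dash* fell by 1.70 on the log2 scale (adjusted p = 0.00817 from limma). Its adjusted p from limma ranged from 0.00817 to 0.726 across 17 alternatives, and was 0.0832 without wt sample 3 alone. The level of *cry3a* was 141, 122 and 107 TPM in the wt samples against 181, 162 and 264 TPM in those of *tulp1*-dKO zebrafish (log2 fold change 0.69, adjusted p = 0.135 from limma). For *cry3b*, named after its values were seen, the levels were 24.0, 23.4 and 2.71 TPM in the wt samples against 21.1, 19.4 and 84.6 TPM in those of *tulp1*-dKO zebrafish. Sample 3 was thus 8.74-fold below the other wt samples and 4.18-fold above the other *tulp1*-dKO samples for this gene.

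Of 11 genes of a light-responsive list, built around DNA repair genes that light induces in zebrafish cells, 0 passed the thresholds in limma's test, and an unadjusted p of 0.05 or less was reached by 2, against 17.1% of the genes tested. Those with the smallest p were the cell cycle kinase genes *cdk1* (log2 fold change 0.42, adjusted p = 0.0624 from limma) and *wee1* (0.41, adjusted p = 0.207), for which wt sample 3 was at 1.003 and 0.744 times the mean of wt samples 1 and 2. Wt sample 3 was at most 0.5 times both other wt samples for 6 of the 11, against 2.36% of the genes tested. Among these, named after their values were seen, the nucleotide excision repair gene *ddb2* was at 45.8, 48.8 and 9.62 TPM in the wt samples against 24.1, 24.7 and 16.0 TPM in those of *tulp1*-dKO zebrafish. The transcription factor gene *tefa* was at 247, 221 and 58.9 TPM in the wt samples against 109, 115 and 44.1 TPM in those of *tulp1*-dKO zebrafish. In both, wt samples 1 and 2 were above all *tulp1*-dKO samples, and wt sample 3 was below all of them for *ddb2* but above *tulp1*-dKO sample 3 for *tefa*. The others were *xpc*, *neil1*, *lonrf1* and *lonrf1l*.

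Of the 6 genes of the positive arm of the clock, which encode CLOCK and BMAL proteins and their paralogs, 0 passed the thresholds in limma's test, none reached an unadjusted p of 0.05, and the median log2 fold change was 0.13. The BMAL gene *arntl1a* was at 19.0 to 23.0 TPM in the wt samples against 21.1 to 29.7 TPM in those of *tulp1*-dKO zebrafish (log2 fold change 0.31, adjusted p = 0.358 from limma), and *clocka* at 3.55 to 3.90 and 3.89 to 5.94 TPM (0.35, adjusted p = 0.399). Both groups overlapped. The CLOCK paralog *npas2*, named after its values were seen, was at 8.74, 10.2 and 3.08 TPM in the wt samples against 4.31, 4.19 and 8.75 TPM in those of *tulp1*-dKO zebrafish, so that sample 3 was lowest in one genotype and highest in the other.

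Of the 14 genes of the secondary loop, nuclear receptors and helix-loop-helix repressors that feed back on the clock, 1 passed the thresholds and was lower, against 0.960% of the genes tested. It was *bhlhe41*, a repressor that acts at E-boxes, which fell from 29.0, 33.5 and 33.9 TPM in wt to 10.7, 10.6 and 5.59 TPM in *tulp1*-dKO zebrafish (log2 fold change −1.89, adjusted p = 0.0184 from limma). Its paralog *bhlhe40* was lower at 43.6, 40.1 and 43.5 TPM against 69.5, 101 and 83.5 TPM, at a log2 fold change of −0.98 just short of 2-fold (adjusted p = 0.0225 from limma). Neither had wt sample 3 apart. The adjusted p of *bhlhe41* from limma was 0.0723, 0.0707 and 0.0531 without wt samples 1, 2 and 3 and 0.0661 with the replicate number as a block, over a range of 0.00497 to 0.0723 across 17 alternatives, with a log2 fold change of −2.04 to −1.54. That of *bhlhe40* was between 0.0271 and 0.0943 with 1 sample left out, within 0.05 only without wt sample 1. For *bhlhe40* it was also above 0.05 with eBayes without trend (0.0588) and with the replicate number as a block (0.0853). At an unadjusted p of at most 0.05, 8 of the 14 genes were lower, against 6.97% of the genes tested, and 0 higher.

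Named after its values were seen, *nr1d1*, which encodes a nuclear receptor that represses BMAL genes, was at 72.4, 132 and 61.9 TPM in the wt samples against 33.3, 29.3 and 7.91 TPM in those of *tulp1*-dKO zebrafish (log2 fold change −2.08, adjusted p = 0.126 from limma). Also named after its values were seen, *ciarta*, which encodes a further repressor of CLOCK and BMAL, was at 83.8, 77.4 and 64.2 TPM in the wt samples against 42.3, 40.0 and 12.6 TPM in those of *tulp1*-dKO zebrafish (−1.43, adjusted p = 0.167). Both genes, like *per1a* and *per1b*, were lowest in *tulp1*-dKO sample 3. In *tulp1*-dKO sample 3 *rorca* and *rorcb*, which encode activators of BMAL genes, were instead at their highest, at 57.3 TPM against 22.3 to 40.0 and at 17.8 TPM against 3.61 to 5.64 in the other 5 samples. These genes were also named after their values were seen.

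Of the 9 tested genes of the PAR bZIP and *nfil3* list, activators and repressors that act at D-boxes, 0 passed the thresholds, and 2 had an adjusted p within 0.05 at a smaller size, against 1.89% of the genes tested. They were *hlfa*, at 84.6, 69.9 and 72.7 TPM in the wt samples against 46.6, 42.4 and 38.1 TPM in those of *tulp1*-dKO zebrafish (log2 fold change −0.84, adjusted p = 0.0187 from limma), and *tefb*, at 71.0, 68.8 and 64.7 TPM against 44.3, 38.9 and 28.5 TPM (−0.89, adjusted p = 0.0454). The groups did not overlap in either gene and no sample stood apart. With 1 sample left out, the adjusted p from limma passed 0.05 for *hlfa* without wt sample 1 or 2 or *tulp1*-dKO sample 2, reaching 0.0807, and for *tefb* without any of the wt samples or *tulp1*-dKO sample 2, reaching 0.164. With all 6 samples it was also above 0.05 with eBayes without trend, at 0.0547 for *hlfa* and 0.0941 for *tefb*. For *tefb* it was above 0.05 without the filter (0.0513) and with the replicate number as a block (0.0777) as well. The activator gene *dbpb*, named after its values were seen, was at 24.7, 21.5 and 35.1 TPM in the wt samples against 12.0, 10.7 and 2.45 TPM in those of *tulp1*-dKO zebrafish. The repressor gene *nfil3-5*, named in the same way, was the reverse in *tulp1*-dKO sample 3, at 87.3 TPM against 25.7 to 37.6 TPM in the other 5 samples. So was *hlfb*, also named after its values were seen, at 18.8 TPM against 9.14 to 13.7 TPM.

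Of 7 tested genes for the turnover of period and cryptochrome proteins, 0 passed the thresholds and none reached an unadjusted p of 0.05 in limma's test. *fbxl3a*, whose product marks cryptochromes for degradation, was at 18.7 to 25.3 TPM in the wt samples against 21.4 to 28.9 TPM in those of *tulp1*-dKO zebrafish (log2 fold change 0.23, adjusted p = 0.518 from limma). The kinase gene *csnk1db* was at 81.9 to 102 and 59.4 to 98.7 TPM (−0.19, adjusted p = 0.667). Both groups overlapped for each gene. Of 9 genes of a glucocorticoid list, 0 passed in limma's test and none reached an unadjusted p of 0.05. The 2 with the smallest p were *pfkfb4b* (−0.42, adjusted p = 0.400) and the receptor gene *nr3c1* (0.19, adjusted p = 0.444). Of 23 immediate early genes, which respond to stimulation and stress, 2 passed, both higher, against 0.364% of the genes tested. Of these, *atf3* was at 4.47 to 7.99 TPM in the wt samples against 34.5 to 43.4 TPM in those of *tulp1*-dKO zebrafish (log2 fold change 2.75, adjusted p = 0.0029 from limma), and *jun* at 53.0 to 76.1 and 127 to 170 TPM (1.24, adjusted p = 0.0205). The call of *atf3* held in all 17 alternatives, while that of *jun* held in 11 of them. It was lost without wt sample 1 or 2 or *tulp1*-dKO sample 1 or 2, with eBayes without trend and with the replicate number as a block, at adjusted p-values from limma of 0.0512 to 0.0950. Named after its values were seen, *fosab* was at 5.55, 20.6 and 42.5 TPM in wt against 4.64, 11.0 and 29.5 TPM in *tulp1*-dKO zebrafish. So was *npas4a*, at 3.11, 7.54 and 20.9 TPM against 1.36, 4.6 and 10.8 TPM. Both genes rose from sample 1 to sample 3 in each genotype, which neither *atf3* nor *jun* did.

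The genes most like each group of members were found by Pearson's r of log2(TPM + 0.1) over the 6 samples, given as a description. Most like *cry5*, the light-induced gene with the smallest p, were *osgn1* (r = 0.996), *ddb2* (0.995) and *abhd2a* (0.988). *osgn1* was at 22.8, 22.8 and 10.9 TPM in the wt samples against 15.8, 16.9 and 14.0 TPM in those of *tulp1*-dKO zebrafish, the same order of wt samples 1 and 2, *tulp1*-dKO samples and wt sample 3. Most like *cry2* were *si:ch211-221n20.4* (r = 0.995), *lctla* (0.995) and a further gene known only by a clone name (0.993). *lctla* was at 28.9, 30.9 and 22.6 TPM in the wt samples against 20.8, 20.3 and 17.3 TPM in those of *tulp1*-dKO zebrafish. All points share the same 6 libraries, and 208 genes reached an r above 0.9 with *cry5* and 264 with *cry2*.

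Most photoreceptor markers were lower in the same comparison. Of 18 tested cone markers 12 passed the thresholds, all lower, against 0.960% of the genes tested. Of the 18, 1 was higher, at a log2 fold change of 1.18 without overlap between the genotypes, and did not pass. The summed level of the cone markers was 17066 to 17665 TPM in the wt samples against 3513 to 6533 TPM in those of *tulp1*-dKO zebrafish. Of 15 rod markers 10 passed, all lower, against the same 0.960%, with sums of 2844 to 3286 and 588 to 973 TPM. Among 10 tested pineal markers 1 passed lower and 1 higher, against 0.960% and 0.364% of the genes tested, with sums of 354 to 360 and 192 to 237 TPM. The pineal and rod lists share *gngt1*, so their calls and sums are not separate. The median log2 fold change was −2.30 over the rod markers and −0.22 over the pineal markers. The lowest pineal value was the same number as the rod median, as 1 shared gene would give, so it is not a separate value. *tulp1*-dKO sample 3 had the lowest cone, rod and pineal sums, though its pineal sum was 192 TPM against 196 TPM in *tulp1*-dKO sample 2. It also had the lowest *per1a*, *per1b*, *per3*, *cry1b* and *cry2*, but not the lowest level of any light-induced gene. The cone sum of wt sample 3 was 17066 TPM against 17411 and 17665 TPM in the other wt samples. In bulk heads, fewer cells of a type and less RNA per cell cannot be told apart, and the part of photoreceptor markers in the levels of the period and cryptochrome genes was not tested.

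Pancreas markers summed to between 1033 and 1712 TPM in wt, and reached 958, 2628 and 4877 TPM in mutant samples 1, 2 and 3, with 0 of 11 passing and *tulp1*-dKO sample 3 the highest. Liver markers summed to 5681 to 7940 and 4011 to 9419 TPM, with 0 of 11 passing, and *tulp1*-dKO sample 3 was again the highest. The part of these tissues in the values of *tulp1*-dKO sample 3 was not tested. None of the markers tested for bipolar cells (9), Muller glia (8), pigment cells (7), skeletal muscle (14) or erythrocytes (6) passed the thresholds in limma's test, and the unadjusted p was at most 0.05 for 2, 4, 1, 6 and 0 of them, against 17.1% of the genes tested. The sums of 2 of these lists did not overlap between the genotypes. Skeletal muscle markers summed to 8645 to 8963 TPM in wt against 9433 to 10815 TPM in *tulp1*-dKO zebrafish. Erythrocyte markers summed to 2967 to 3147 TPM in wt against 2435 to 2886 TPM in *tulp1*-dKO zebrafish. The gene *aanat2*, which encodes a pineal enzyme of the melatonin pathway, whose activity rises at night, was named after its values were seen. It was at 3.29, 6.39 and 2.95 TPM in the wt samples against 12.3, 14.1 and 30.9 TPM in those of *tulp1*-dKO zebrafish, without overlap and highest in *tulp1*-dKO sample 3 (log2 fold change 2.12, adjusted p = 0.0570 from limma).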

How the data were processed

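RNA from dissected heads at 4 dpf was sequenced on the Illumina NovaSeq platform. The authors mapped the reads to GRCz11 with HISAT2, counted them with RSEM and deposited TPM per gene for each sample. The versions are not given in the sources used here. Samples were grouped by their labelled genotype.

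Values were taken as log2(TPM + 0.1). Genes averaging 0.5 TPM or more over the 6 samples (22824, with all 9 members among them) entered a limma model (version 3.58.1, R 4.3.3, lmFit and trended eBayes) of genotype, and p-values were adjusted by the Benjamini-Hochberg method over all these genes. A change had to reach 2-fold and an adjusted p of 0.05 or less, as in the authors' thresholds. The DESeq2 test of the authors was not run, since TPM are not counts. The model was tested on simulated data. Python 3.11.15 with pandas 2.3.3, numpy 2.4.6 and matplotlib 3.10.9 made the tables and figures.

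The members and the gene lists, written by hand from general knowledge, were chosen with earlier results of these data known. Besides the members, the text names the genes of each clock or light list that changed (the 2 with the smallest p where fewer than 2 did), the 3 genes most like each member group and the targeted genes. Genes named for another reason are said to be so. As alternatives, the pseudocount was set to 0.5 or 1, the filter was dropped or raised to 2 TPM, the TPM were rescaled (by median ratios, by quantiles, or leaving the 50 most abundant genes out of the total), eBayes was run untrended or robust, the replicate number entered as a block, single samples were omitted, and the thresholds were loosened. Omitting both samples 3 was added after the data were seen. The counts of genes in which a single sample stood apart, or in which the wt samples ranged widely, were not planned either. The shares of all genes tested given beside those counts are a description and not a test. No sequences are printed.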

Additional observations from a re-analysis of the deposited data

How the results depend on the processing

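The count of 0 changed period and cryptochrome genes held under both pseudocounts, both filters, the scalings, both other eBayes settings and without a minimum fold change. It was 4 with an unadjusted p and 4 without both samples 3, and ranged from 0 to 3 with 1 sample left out. The count over all genes was 302, and became 950 with an unadjusted p and 104 to 243 with each sample left out, lowest without wt sample 1 (104), *tulp1*-dKO sample 2 (136) and wt sample 2 (137). With each sample left out, the log2 fold change ranged from −1.73 to 0.41 for *per2*, from −0.86 to 0.36 for *cry1a*, from −1.96 to 0.0228 for *cry5*, from −1.15 to 0.0117 for *ddb2* and from −0.35 to 0.0185 for *csnk1db*. Without both samples 3, *cry4* was at −0.0549 and *csnk1db* at 0.10. The numbers 1 to 3 are shared by the genotypes, but the deviations of same-numbered samples correlated only at 0.0290, 0.0313 and 0.0324, so the main model did not take the numbers as pairs. These correlations run over all genes tested, so they cannot show whether same-numbered samples were collected together. Each sample correlated best with its own number. The deviations of a genotype sum to 0 for each gene, so these correlations depend on each other. Whether the numbers mark pairs was not tested. With the replicate block, 134 genes and 1 member (*cry2*, adjusted p = 0.0326 from limma) passed. The SE of *cry2* was 0.12 with the block and 0.35 without it, and that of *per3* was 0.22 and 0.46. For *cry4* the SE was 0.16 in both. The scalings moved the median of all genes by less than 0.1 on the log2 scale. TPM values keep no depth, so counting error is unknown.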
